A study of Mus musculus with 6 samples.

Results

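The genes described here are 32 members of the integrin adhesion machinery, 18 integrin subunits and 14 proteins that act on their cytoplasmic side. They were taken by symbol from a table of 24951 genes measured in endothelial cells of the mouse lung. All 32 were present in the counts and all 32 passed the filter on low counts, which kept 14934 genes. An integrin is a pair of an alpha and a beta subunit that spans the cell membrane and binds matrix outside and the actin cytoskeleton inside. Receptors for laminin and collagen hold endothelial cells to the basement membrane, while receptors for the RGD peptide motif bind fibronectin and vitronectin. Talins and kindlins bind the beta tail and switch the receptor on, and the complex of ILK, PINCH and parvin, with vinculin, paxillin, focal adhesion kinase and zyxin, builds the focal adhesion around it.

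Lungs came from pups at postnatal day 5. The 3 mutant pups were Smad4 f/f;Cdh5-CreERT2 and are labelled Smad4 iECKO, so that both floxed alleles met an inducible Cre recombinase driven by an endothelial promoter. The 3 control pups were Smad4 f/f without Cre and are labelled wildtype, so both groups carried floxed alleles and no group had Cre with an intact gene. Neither the dose nor the day of tamoxifen is in the labels, and 1 sentence of the protocol names the mice HHTf/f and HHTiECKO instead. Cells were pulled from digested lung with CD31 beads, and libraries were made from polyadenylated RNA of samples that the labels call biologically independent.

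Assigned reads ranged from 14093564 to 21113926 per library. Smad4, the gene deleted, stood at 177 to 188 CPM (counts scaled to a common library size) in the controls and at 72.9 to 94.2 CPM in the mutants (log2 fold change -1.09, edgeR adjusted p = 0.000604). Endothelial markers were high in every library, with 1478 to 1744 CPM of Pecam1, the gene of CD31, and 2087 to 2496 CPM of Cdh5. Of 11 tested endothelial markers, Robo4 was called higher and Tek lower, and the summed level of the list was 9089 to 10037 CPM in controls and 9572 to 9953 CPM in mutants. The Robo4 call ended without control 1 (adjusted p = 0.0697), control 3 (0.0897), mutant 1 (0.0897) or mutant 2 (0.127), and the Tek call without control 3 (0.054) or mutant 2 (0.076). Of 6 tested lymphatic endothelial markers Lyve1 was called higher, while Ccl21a had no count in any library. The Lyve1 call ended without control 2 (edgeR adjusted p = 0.0622), mutant 1 (0.07) or mutant 2 (0.0904). None of 87 tested markers in 9 lists of other cell types was called by edgeR, with 6 at an unadjusted p under 0.05, and DESeq2 called 2 of them, Ms4a1 and Rgs5, and limma-voom 1. Those lists cover leukocyte integrins, platelets, macrophages and monocytes, lymphocytes, neutrophils, smooth muscle and pericytes, fibroblasts, epithelium and mesothelium, and their medians ran from -0.07 to 0.36 on the log2 scale. The highest median was that of the lymphocyte markers. Of their 7 tested genes 4 had an unadjusted p under 0.05 by edgeR, against 14.0% of all tested genes. In 4 of the 7 the groups did not overlap, all higher in the mutants, against 11.6% of all tested genes. Replicate 1 of each group was male and the other libraries were female by Xist and Y-linked counts.

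In the mutant libraries the adaptor gene Lims1 was higher and the collagen receptor gene Itga2 was lower, and the other 30 members did not pass the test. Lims1 rose 1.52-fold, a call that held in all 14 alternative fits, and Itga2 fell 1.35-fold, a call that held in only 4 of the 14. Among those that did not pass were the genes of talin-1, vinculin and focal adhesion kinase, Tln1, Vcl and Ptk2. Their 95% intervals ran from -0.20 at the lowest to 0.23 at the highest on the log2 scale. Other members that did not pass had intervals that excluded 0. Those of Lims2 (-1.0 to -0.28) and Parvb lay below 0, and those of Itga5 (0.15 to 0.55), Zyx, Itga6, Itga9 and Pxn above 0. A gene was called where its p from the quasi-likelihood test of edgeR, adjusted over all tested genes after Benjamini and Hochberg, was under 0.05. By that rule 1.93% of all tested genes were higher and 1.34% lower in the mutants, 3.27% in all. DESeq2 called 4 members, Lims1, Itga2, Itga5 and Lims2, and 5.06% of all genes. By limma-voom 1 member was called, Lims1, and 442 of the 14934 tested genes. The median log2 fold change was -0.008 over the 32 members and -0.002 over all tested genes, and 16 members lay above 0 and 16 below. In 11 members the values of both groups did not overlap, 8 of them higher and 3 lower in the mutants. Among all tested genes 20.6% had no overlap, 11.6% higher and 9.04% lower. At an unadjusted p under 0.05 there were 9 members, against 14.0% of all tested genes. Of the 18 integrin subunits 0 rose, 1 fell and 17 did not pass, and of the 14 cytoplasmic members 1 rose, 0 fell and 13 did not pass.

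**Figure D1:**
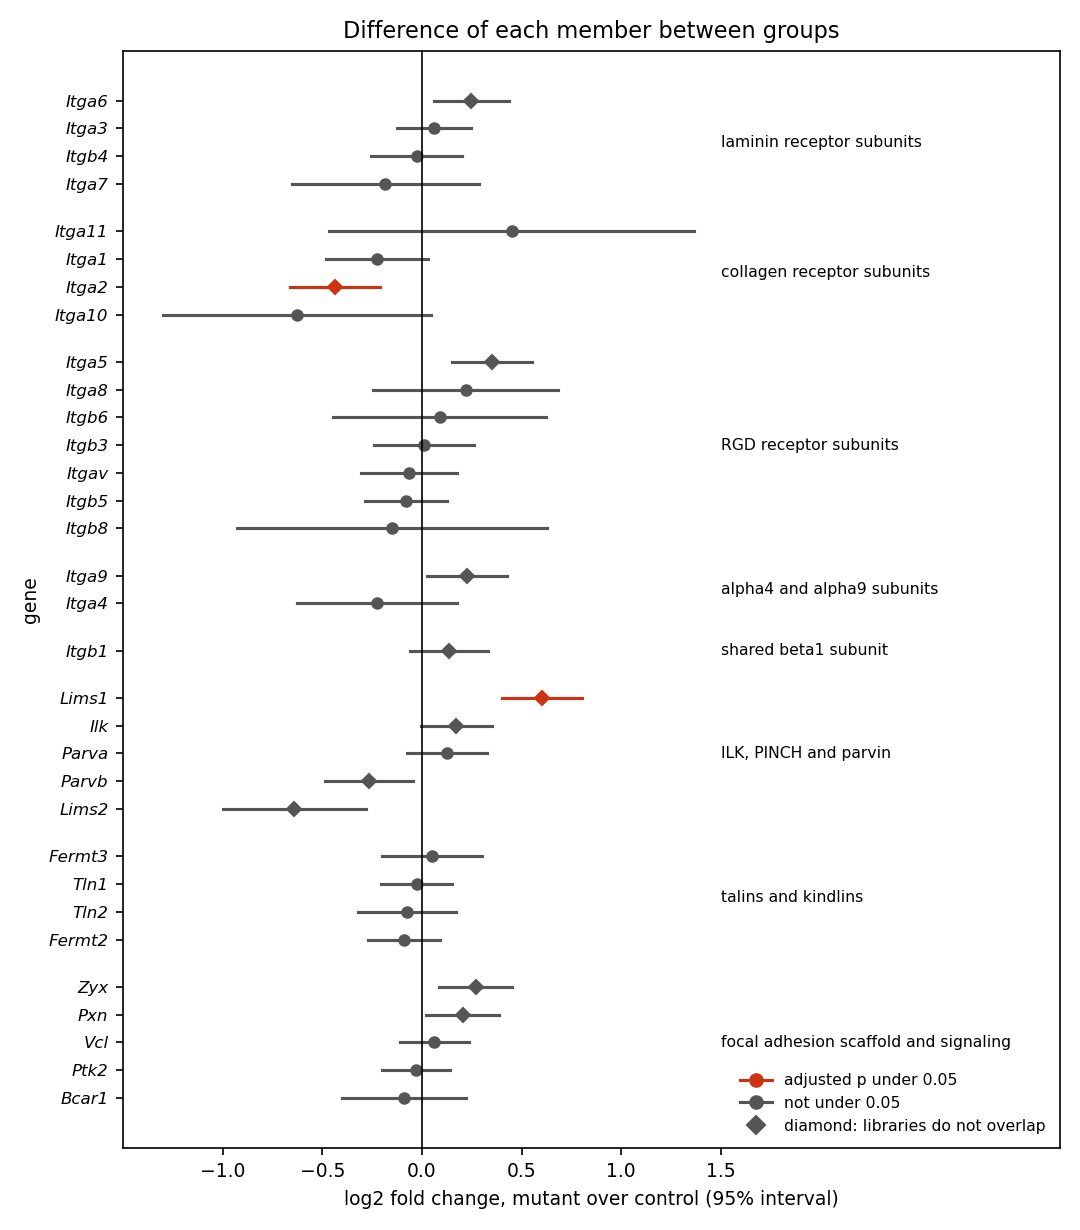
Log2 fold change of mutant over control (x axis) for the 32 genes (y axis), grouped by role, with the 95% interval of the fitted difference as a line. Lims1 at 0.60 and Itga2 at -0.44 are marked as called, and diamonds mark the 11 genes whose libraries do not overlap between groups.

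The cytoplasmic adaptors are given first, since the member with the smallest p is among them. Lims1 (ENSMUSG00000019920.17, GRCm38 chromosome 10, 58323466 to 58424691, plus strand) encodes PINCH1, a protein of LIM domains that binds ILK. Values are given for replicates 1, 2 and 3 of each group in that order. Its level was 327, 319 and 315 CPM in controls 1 to 3, against 504, 434 and 522 CPM in mutants 1 to 3. The lowest mutant library lay above the highest control, and the control values were close together, at 320.4 ± 6.30 CPM against 487 ± 46.1 CPM in the mutants (SD, n = 3 each). The fitted log2 fold change, mutant over control, was 0.60 ± 0.09 (SE), 95% interval 0.40 to 0.80 (edgeR, adjusted p = 0.00524). The call held in all 14 alternative fits, and without any 1 library the adjusted p ran from 0.0112 to 0.0321. In RNA from many cells, a larger number of cells with the transcript and more transcript per cell cannot be told apart. The summed level of 14 smooth muscle and pericyte markers was 296 to 444 CPM in controls and 429 to 553 CPM in mutants, with Rgs5 called by DESeq2 and limma-voom, and that of 9 lymphocyte markers was 172 to 189 CPM and 206 to 265 CPM. Of the 9 lists of other cell types these had the highest medians, 0.23 and 0.36 on the log2 scale, while the lowest was -0.07. No member of the 9 lists was called by edgeR, though 4 of the 7 tested lymphocyte markers had an unadjusted p under 0.05. Neither the smooth muscle and pericyte list nor the lymphocyte list had a member at 0 in every library. The part of such cells in the level of Lims1 was not tested.

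Lims2 encodes PINCH2, the close relative of PINCH1 that competes for the same site on ILK. Its gene (ENSMUSG00000024395.9) lies on chromosome 18 from 31922290 to 31958619. Lims2 was measured at 27.4, 20.9 and 30.8 CPM in controls 1 to 3, against 14.6, 17.3 and 19.0 CPM in mutants 1 to 3. All mutant values lay under all control values, opposite in direction to Lims1, but the difference did not pass the test. The log2 fold change was -0.64 ± 0.16 (SE), interval -1.0 to -0.28 (edgeR adjusted p = 0.0686). DESeq2 called it lower (adjusted p = 0.0105), as did the fit with no low-count filter (0.0330), the fit without control replicate 2 (0.0358) and the fit with a replicate block (0.0499). The longest transcripts of Lims1 and Lims2 share 0 stretches of 50 bases with the other annotated genes. However, 188 bases of Lims2 exon are also exon of Gpr17 on the opposite strand, and whether counting used strand is not known here.

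The levels of Lims1 and Lims2 can be set against each other per length, as RPKM (CPM per kilobase of merged exon). Lims1 exceeded Lims2 by 7.47, 9.53 and 6.41 times in controls 1 to 3, against 21.6, 15.7 and 17.2 times in mutants 1 to 3. The ratio was therefore higher in every mutant library than in any control, at 18.2 ± 3.05 against 7.80 ± 1.58 (SD, n = 3 each). A difference of the log2 ratio of 1.23 gave a two-sided exact permutation p of 0.10, which is the smallest that 3 against 3 libraries allow, and 0.20 after Benjamini-Hochberg adjustment over 4 pairs of related genes. These 4 pairs were chosen with the values of the members known. Every mutant library lay above the controls for Lims1 and under them for Lims2, so their ratio could not overlap. The p of that pair was fixed by those values and adds no support to them.

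The parvins, actin-binding partners of ILK, differed less between the groups, and neither passed the test. Parva, for alpha-parvin, stood at 234, 201 and 207 CPM in controls 1 to 3, against 236, 248 and 217 CPM in mutants 1 to 3 (log2 fold change 0.13, edgeR adjusted p = 0.597), with overlap between the groups. Parvb, for beta-parvin, stood at 266, 212 and 267 CPM in controls 1 to 3, against 205, 208 and 207 CPM in mutants 1 to 3. The mutant values were nearly the same in each library and lay under the lowest control, but the log2 fold change of -0.27 (SE 0.10) did not pass (edgeR adjusted p = 0.246). Per length the ratio of Parva to Parvb was 0.377 ± 0.0375 in controls and 0.491 ± 0.0335 in mutants, without overlap (SD, n = 3 each, exact permutation p = 0.10, adjusted p = 0.20). Ilk itself, the scaffold that joins PINCH and parvin to the beta tail, had 156 to 175 CPM in controls and 181 to 190.4 CPM in mutants, without overlap and with a log2 fold change of 0.17 (interval -0.01 to 0.35, edgeR adjusted p = 0.376). In the GENCODE M21 models 2106 bases of Ilk exon are also exon of Taf10 on the opposite strand, and whether counting used strand is not known here.

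**Figure D2:**
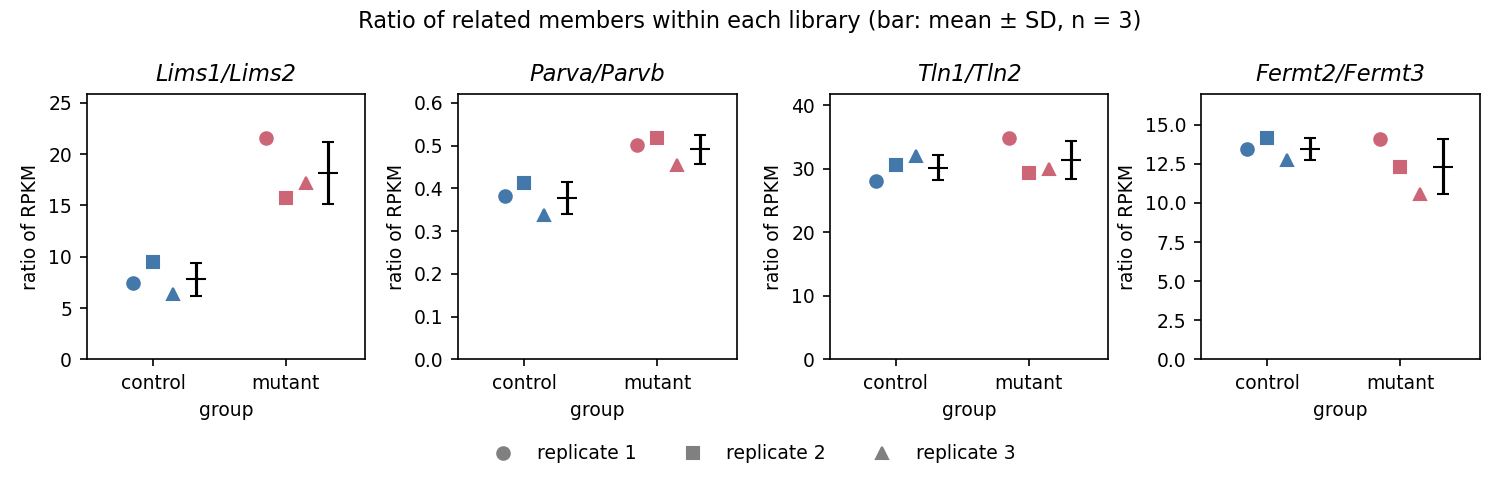
Ratio of RPKM within each library (y axis) for 4 pairs of related genes, by group, with replicates as symbols and mean ± SD as bars. The ratio of Lims1 to Lims2 lies between 6.41 and 9.53 in controls and between 15.7 and 21.6 in mutants, while those of Tln1 to Tln2 and Fermt2 to Fermt3 overlap.

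Itga2 (ENSMUSG00000015533.9, chromosome 13, 114833081 to 114932100, minus strand) encodes the alpha2 subunit, which joins beta1 to form a collagen receptor. Its level was 275, 285 and 309 CPM in controls 1 to 3, against 234, 185 and 223 CPM in mutants 1 to 3. Every mutant library lay under every control. The means were 290 ± 17.5 and 214 ± 25.4 CPM (SD, n = 3 each), and the log2 fold change -0.44 ± 0.10 (SE), interval -0.66 to -0.21 (edgeR, adjusted p = 0.0473). This call was near the threshold. It ended whichever of the 6 libraries was omitted, and the adjusted p became 0.0503 (without mutant replicate 1), 0.0505 (without control replicate 1), 0.0886 (without mutant replicate 3), 0.126 (without control replicate 2), 0.149 (without control replicate 3) and 0.163 (without mutant replicate 2). It also ended with the replicate block (0.0518), limma-voom (0.0559), no robust option (0.0556) and sex as a covariate (0.0710), while DESeq2 kept it (0.00635). Platelets and epithelium are also known to carry alpha2. The summed level of 9 platelet and megakaryocyte markers was 80.4 to 108 CPM in controls and 72.1 to 96.8 CPM in mutants, and that of the 15 epithelial markers 2429 to 4448 CPM and 3120 to 3626 CPM, where Krt5 had no count in any library. None of either list was called by edgeR, DESeq2 or limma-voom, and 0 of them had an unadjusted p under 0.05. The part of these cells in the difference was not tested.

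The other collagen receptor subunits did not pass. Itga1, which lies next to Itga2 on chromosome 13 on the same strand and also pairs with beta1, had 161, 171 and 138 CPM in controls 1 to 3, against 115, 142 and 145 CPM in mutants 1 to 3. The groups overlapped, and the log2 fold change was -0.23 (interval -0.48 to 0.03, edgeR adjusted p = 0.423). Exons of Itga1 share 685 bases with the gene model Gm49395 on the same strand. Itga10 had 3.41 to 7.83 CPM in controls and 3.14 to 4.23 CPM in mutants (log2 fold change -0.63, SE 0.30). Of the 50-base stretches of its longest transcript 32% also occur in the gene model Gm42957, so its value as a single gene is uncertain. Itga11, whose subunit binds fibrillar collagen, was near the lower limit of measurement, at 0.723 to 1.45 CPM in controls and 0.878 to 2.39 CPM in mutants, where 3 counts amount to 0.142 to 0.213 CPM.

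The promoters of both called genes are shown because the deleted gene encodes a DNA-binding partner of SMAD complexes. They are the 250 bases before the RefSeq start on GRCm38.p6, from the outermost of 3 listed starts for Lims1 (chr10:58323297-58323546, plus strand) and the start listed for Itga2 (chr13:114932101-114932350, minus strand), printed 5′ to 3′ on the gene's strand. The last bases of the Lims1 window lie inside the GENCODE M21 model, which starts at 58323466. Capitals mark the SMAD box CAGAC or its reverse complement GTCTG.
Lims1: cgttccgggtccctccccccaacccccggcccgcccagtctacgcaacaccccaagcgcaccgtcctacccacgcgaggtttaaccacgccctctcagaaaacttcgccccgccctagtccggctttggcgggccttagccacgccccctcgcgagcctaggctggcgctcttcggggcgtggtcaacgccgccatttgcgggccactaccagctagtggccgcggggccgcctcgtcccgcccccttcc
Itga2: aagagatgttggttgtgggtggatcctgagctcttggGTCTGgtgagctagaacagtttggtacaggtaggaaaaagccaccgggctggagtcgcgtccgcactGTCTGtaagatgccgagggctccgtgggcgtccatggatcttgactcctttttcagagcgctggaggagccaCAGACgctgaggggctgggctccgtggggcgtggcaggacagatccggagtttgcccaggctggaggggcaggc
The Itga2 window holds 3 such matches and the Lims1 window shown 0, while the windows of the other listed Lims1 starts, not shown, hold 0 and 1. Among 32851 promoter windows of the same length 42.2% hold at least 1 match and 2.32% at least 3. The palindrome GTCTAGAC is in none of these windows and in 0.17% of all. The GC-rich SMAD motifs GGCGC and GGCCG, searched on both strands and able to overlap each other, occur 1 and 3 times in the Lims1 window shown, 0 times in its other windows and 0 times in that of Itga2, and are in 32% and 30.4% of all windows. Windows were at hand for 23 of the 32 genes. Of these, 11 held CAGAC in at least 1 window, Lims1 among them through a window not shown, and a window with 3 matches was found for Itga2 and Itgb1. Counted by window, 11 of their 29 windows held a match, 37.9% against the 42.2% of all windows. A match is a description of the letters and not a site of binding.

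Among laminin receptors, Itga6 was the only subunit without overlap between groups. Its alpha6 chain pairs with beta1 or beta4. Itga6 had 599.6, 523 and 600 CPM in controls 1 to 3, against 689.5, 695 and 662 CPM in mutants 1 to 3. All mutant libraries were higher, by 0.25 on the log2 scale (interval 0.06 to 0.44), but the gene did not pass (edgeR adjusted p = 0.196). Itga3, for the alpha3 subunit, overlapped between groups at 345 ± 18.2 and 360.1 ± 19.3 CPM (SD, n = 3 each, log2 fold change 0.06). Itgb4, the partner of alpha6 in hemidesmosomes, was at 50.5 to 61.0 CPM in controls and 52.4 to 57.8 CPM in mutants, and Itga7, known from muscle, at 4.195 to 5.88 and 4.01 to 5.15 CPM.

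Itgb1, whose beta1 chain is shared by laminin, collagen and fibronectin receptors, was the most abundant integrin transcript. It had 1380, 1183 and 1404 CPM in controls 1 to 3, against 1489, 1460 and 1409 CPM in mutants 1 to 3. The groups did not overlap, though mutant replicate 3 and control replicate 3 were nearly equal. The log2 fold change of 0.14 did not pass (interval -0.06 to 0.33, edgeR adjusted p = 0.543).

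Among RGD receptors, Itga5 was the only subunit without overlap between groups. Itga5 (ENSMUSG00000000555.8, chromosome 15, 103344286 to 103366763) encodes alpha5, which with beta1 forms the main fibronectin receptor. It was measured at 353, 399.9 and 377 CPM in controls 1 to 3, against 512, 485 and 440.5 CPM in mutants 1 to 3. All mutant libraries were higher than all controls. The log2 fold change of 0.35 (SE 0.09, interval 0.15 to 0.55) did not pass (edgeR adjusted p = 0.0740), and DESeq2 called the gene (adjusted p = 0.0213). The alphav subunit gene Itgav stood at 100.4 ± 9.24 and 96.0 ± 11.1 CPM, Itgb3, its beta3 partner, at 52.4 ± 6.69 and 52.9 ± 3.53 CPM, and Itgb5, its beta5 partner, at 65.1 ± 3.96 and 61.6 ± 3.51 CPM in control and mutant libraries (SD, n = 3 each). Their log2 fold changes lay between -0.08 and 0.01, and their groups overlapped. Itgb8, with 8 to 16 counts per library, was near the lower limit of measurement at 0.537 to 0.747 CPM over all libraries.

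Itgb6 and Itga8 varied more between libraries of a group than between the groups. Itgb6, whose beta6 chain is known from epithelium, had 88.2, 66.3 and 47.8 CPM in controls 1 to 3, against 81.2, 76.4 and 57.8 CPM in mutants 1 to 3. Epcam, an epithelial marker, stood at 40.5, 30.2 and 21.4 CPM and at 29.7, 36.4 and 25.8 CPM in the same libraries. In both groups replicate 3 was lowest for both genes, but in mutants Itgb6 was highest in replicate 1 and Epcam in replicate 2. The epithelial list summed to 4448, 3792 and 2429 CPM in controls 1 to 3, against 3344, 3626 and 3120 CPM in mutants 1 to 3. Itga8, known from mesenchymal cells, had 31.7, 36.3 and 21.9 CPM in controls 1 to 3, against 39.8, 37.4 and 27.4 CPM in mutants 1 to 3. The 14 fibroblast markers summed to 1682, 1779 and 1148 CPM and to 1750, 2028 and 1345 CPM in the same order, with no member at 0 in all libraries. The share of Itgb6 and Itga8 that came from such cells was not tested.

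The alpha4 and alpha9 subunits bind VCAM-1 and other ligands outside the RGD group. Itga9, which is known from lymphatic valves, had 106, 94.8 and 88.8 CPM in controls 1 to 3, against 115, 115 and 109 CPM in mutants 1 to 3, without overlap (log2 fold change 0.22, edgeR adjusted p = 0.290). The 7 lymphatic endothelial markers, of which Lyve1 was the most abundant, summed to 1169 to 1415 CPM in controls and 1529 to 1594 CPM in mutants. Of the 6 tested, however, 3 lay above 0 and 3 below, with a median log2 fold change of -0.03. Prox1, the defining factor of that lineage, overlapped at 58.0 to 71.7 and 50.5 to 70.5 CPM. The part of lymphatic cells in the level of Itga9 was not tested. Itga4, which leukocytes also carry, overlapped at 85.3 to 136 and 81.6 to 109 CPM (log2 fold change -0.23, SE 0.18), and 1124 bases of its exons lie opposite exons of Cerkl. The 8 leukocyte integrin genes outside this set summed to 226 to 272 CPM in controls and 208 to 286 CPM in mutants.

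**Figure D3:**
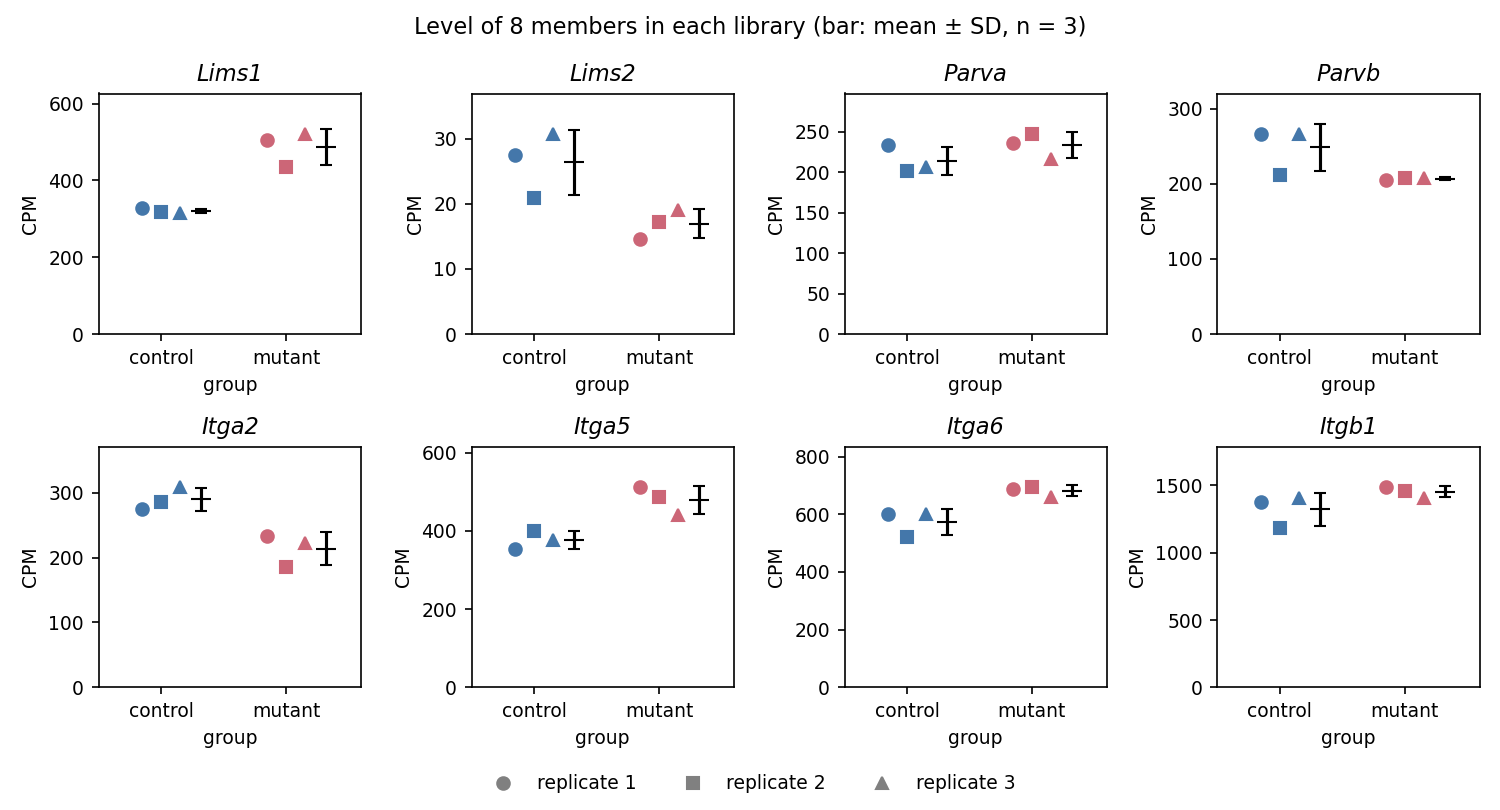
CPM (y axis) of 8 genes in each library by group (x axis), with replicates as symbols and mean ± SD as bars. Lims1 is higher in all mutant libraries (434 to 522 CPM against 315 to 327 CPM), Itga2 and Lims2 are lower in all of them, and Parva overlaps.

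The integrin subunits differed widely in level. Per length, Itgb1 had 324 ± 29.7 RPKM in controls, followed by the alpha subunit genes Itga5 with 76.3 ± 4.80, Itga6 with 63.6 ± 4.91, Itga3 with 60.5 ± 3.18 and Itga2 with 40.6 ± 2.46 RPKM (SD, n = 3). Itga6 and Itga3 differed by less than their SD. Itgb5 followed at 18.3 ± 1.12 and Itga9 at 12.6 ± 1.14 RPKM, and Itgb6, Itgav, Itgb3, Itga1, Itgb4 and Itga4 lay between 8.07 and 9.48 RPKM, an order that their spreads do not resolve. Itga8 was at 4.07 ± 0.997 RPKM, and Itga10, Itga7, Itga11 and Itgb8 were at 1.16 RPKM or less. With the longest transcript as the length in place of merged exons, Itga6 came before Itga5, at 133 against 85.3 RPKM.

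**Figure D4:**
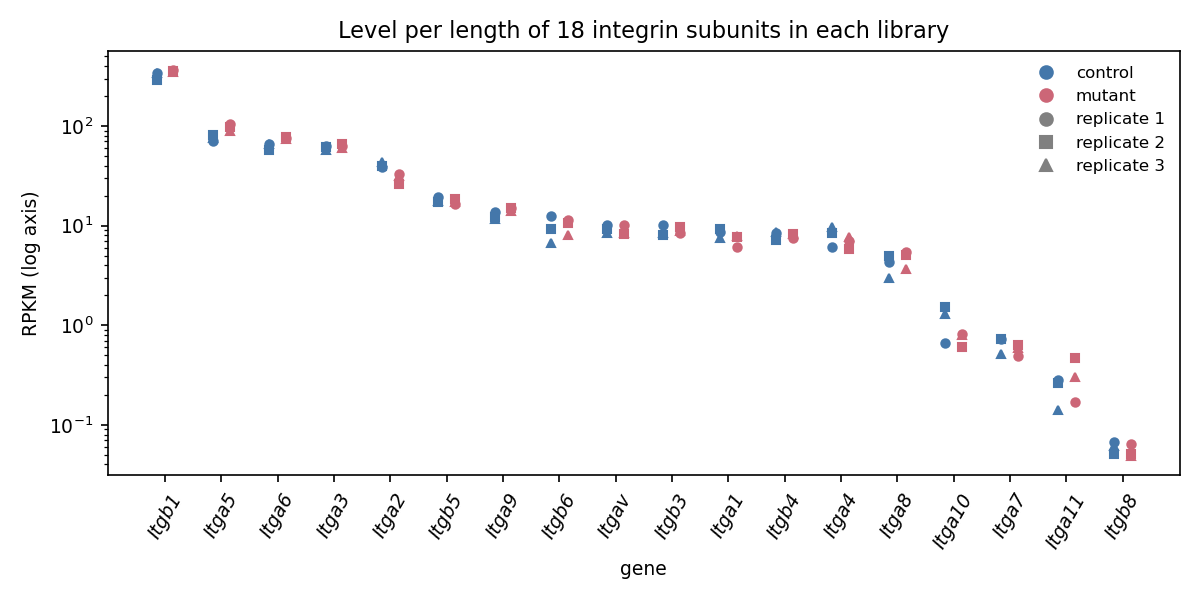
RPKM of the 18 integrin subunits (x axis) on a log axis (y axis), control and mutant libraries in separate colours and replicates as symbols, in order of the control mean. Itgb1 lies near 324 RPKM and Itgb8 near 0.060 RPKM in controls.

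Alpha subunit transcripts were summed by receptor class. Those of laminin receptors (Itga3, Itga6 and Itga7) made up 43.7% ± 2.01 of alpha subunit RPKM in controls and 44.9% ± 1.38 in mutants (SD, n = 3 each), with overlap. Their share overlapped but their summed RPKM did not, at 130, 120 and 124 in controls 1 to 3, against 140, 144 and 134 in mutants 1 to 3. These sums were not tested. The collagen class (Itga1, Itga2, Itga10 and Itga11) made up 16.9%, 17.8% and 18.3% in controls 1 to 3, against 12.4%, 11.2% and 13.5% in mutants 1 to 3. The RGD class (Itga5, Itga8 and Itgav) made up 30.2%, 33.2% and 30.8% in controls 1 to 3, against 37.2%, 35.9% and 34.1% in mutants 1 to 3. The collagen share was lower and the RGD share higher in every mutant library, while Itga4 with Itga9 overlapped at 7.22% ± 0.238 and 6.96% ± 0.375. Itga2 and Itga5 hold most of the level in their classes, so the shares follow the values of those genes, and they were given no test.

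**Figure D5:**
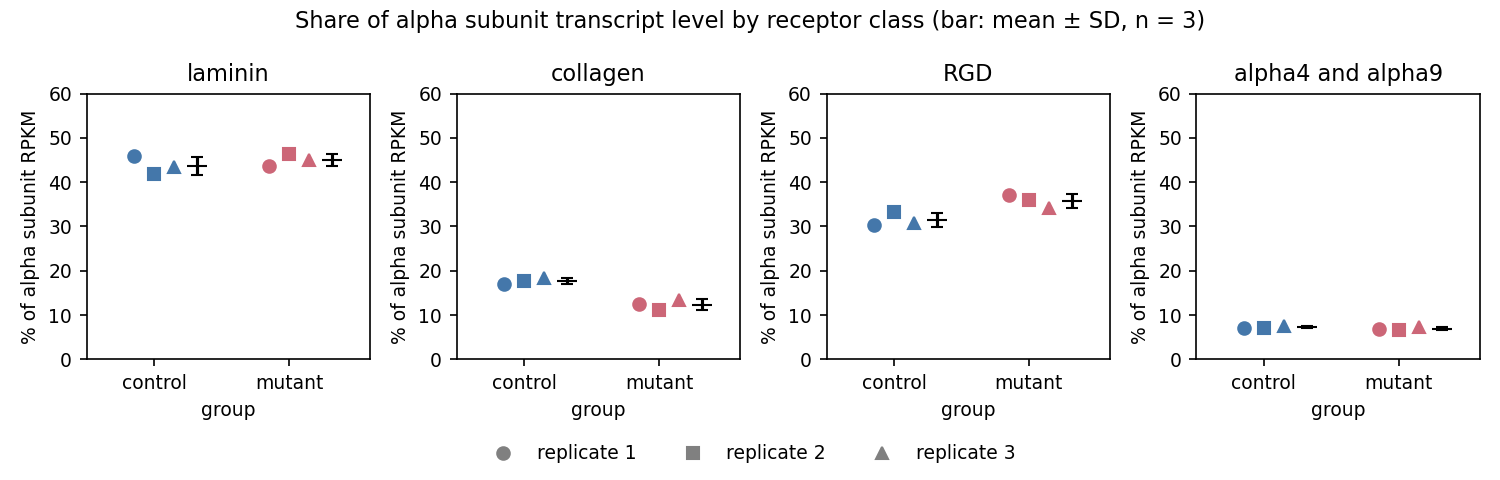
Share of alpha subunit RPKM in percent (y axis) by receptor class and group, with replicates as symbols and mean ± SD as bars. The collagen class lies at 16.9% to 18.3% in controls and 11.2% to 13.5% in mutants, and the share of the laminin class overlaps.

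None of the 4 genes for activators of integrins passed the test. Tln1, for the main talin of endothelial cells, had 769, 807 and 813 CPM in controls 1 to 3, against 769.9, 832 and 744 CPM in mutants 1 to 3, and the 95% interval of its log2 fold change was -0.20 to 0.15. Fermt2, for kindlin-2, stood at 448 ± 21.5 and 422 ± 18.7 CPM (interval -0.27 to 0.09) and Tln2 at 49.5 ± 1.84 and 47.1 ± 5.94 CPM (SD, n = 3 each, interval -0.32 to 0.17). Fermt3, for kindlin-3 of blood cells, was found at 37.3 ± 2.93 and 38.5 ± 4.05 CPM (interval -0.20 to 0.30), beside 73.2 to 115 CPM of the leukocyte integrin gene Itgb2 over all libraries. Of them 0 had an unadjusted p under 0.05 by edgeR, and 0 were called by DESeq2 or limma-voom.

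Of the scaffold and signaling genes, Zyx and Pxn lay higher in every mutant library. Zyx, whose LIM protein gathers at adhesions under tension, had 174, 191 and 183 CPM in controls 1 to 3, against 225, 231 and 206 CPM in mutants 1 to 3, a log2 fold change of 0.27 (interval 0.09 to 0.45, edgeR adjusted p = 0.140). Pxn, for the adaptor paxillin, had 293, 302 and 303 CPM in controls 1 to 3, against 344, 369 and 321 CPM in mutants 1 to 3 (log2 fold change 0.20, edgeR adjusted p = 0.292). Neither passed the test. Vcl, which links talin to actin, stood at 537 ± 9.98 and 559.8 ± 23.2 CPM (interval -0.11 to 0.23), and Ptk2, for focal adhesion kinase, at 298 ± 7.40 and 291 ± 9.99 CPM (interval -0.20 to 0.14). Bcar1, for the kinase substrate p130Cas, ranged from 187 to 248 CPM in controls and from 173 to 233 CPM in mutants (interval -0.40 to 0.22). Exons of Vcl share 2090 bases with Ap3m1 on the opposite strand in the GENCODE models.

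Per length the cytoplasmic members were led in controls by Fermt2 with 86.4 RPKM and Tln1 with 81.2 RPKM. Lims1 and Vcl followed at 65.5 RPKM each, then Ilk at 59.9 and Parvb at 56.2 RPKM. In mutants Lims1 stood at 99.5 RPKM, above Fermt2 at 81.2 and Tln1 at 79.8 RPKM. With the longest transcript as the length that order differed, with Lims1 at 112 RPKM and Fermt2 at 128 RPKM in mutants. Lims2 at 8.62, Fermt3 at 6.44 and Tln2 at 2.70 RPKM were the lowest in controls.

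The ligands and the remaining focal adhesion genes give the setting of these values. Of 11 laminin chain genes, Lama4 and Lamb1 were called higher, Lamc3 was called lower and 8 did not pass. In mutant against control libraries Lama4, for the alpha4 chain of endothelial basement membrane, stood at 649 ± 90.5 against 249 ± 12.0 CPM, Lamb1 at 580 ± 121 against 216 ± 16.6 CPM and Lamc3 at 5.22 ± 1.12 against 21.4 ± 5.65 CPM (SD, n = 3 each, edgeR adjusted p = 0.000262, 0.00116 and 0.00157). Their log2 fold changes of 1.38, 1.42 and -2.03 exceed that of any of the 32 members in size, whose range was -0.64 to 0.60. DESeq2 called 6 laminin chain genes, 3 higher and 3 lower, and limma-voom called 3, with 2 higher and 1 lower. Of 12 collagen ligand genes Col4a1 was called higher (log2 fold change 0.43, edgeR adjusted p = 0.0242) and 11 did not pass. That call ended with the replicate block (0.0557), with any control library left out (0.0677, 0.1 and 0.0553 for controls 1, 2 and 3), and with mutant 1 (0.0886) or mutant 2 (0.12) left out. Next by p was Col4a2, for its chain partner in basement membrane, at 2989 ± 133 CPM in controls and 3871 ± 426 CPM in mutants (SD, n = 3 each, edgeR adjusted p = 0.0610), which DESeq2 called as well as Col4a1. Of 15 RGD ligand genes 0 were called by edgeR, DESeq2 or limma-voom and 2 had an unadjusted p under 0.05. These were Fbn1, for fibrillin-1, at 333 ± 12.0 and 275 ± 26.0 CPM in control and mutant libraries, and Mfge8, for a secreted protein with an RGD motif, at 224.5 ± 11.4 and 264 ± 24.3 CPM (SD, n = 3 each, edgeR adjusted p = 0.169 and 0.267). The list medians were 0.16, 0.19 and 0.03 on the log2 scale for laminin, collagen and RGD ligands.

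Of 54 other focal adhesion genes 0 were called higher by edgeR, 11 had an unadjusted p under 0.05 in either direction, and the median log2 fold change of all 54 was 0.01. Pdlim1, for a LIM protein of actin fibers, did not pass with edgeR and was called by DESeq2, at 119 ± 2.51 and 156 ± 17.1 CPM (SD, n = 3 each, log2 fold change 0.39, edgeR adjusted p = 0.0539). Of 19 regulators of integrin activity 0 were called by edgeR, with 5 at an unadjusted p under 0.05, and limma-voom called 0 and DESeq2 1. That gene was Sipa1, for a protein that turns off the integrin activator Rap1, with 310, 301 and 326 CPM in controls 1 to 3, against 380, 405 and 384 CPM in mutants 1 to 3 (log2 fold change 0.32, edgeR adjusted p = 0.0601). The second by p was Cd81, a tetraspanin, at 282 ± 11.7 and 333 ± 31.4 CPM (SD, n = 3 each, edgeR adjusted p = 0.252).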

How the data were processed

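The authors deposited raw counts per gene symbol and library, and 0 values differed between their table of the series and the files of single libraries. The build mm10 and the tool DESeq2, the latter with no role, come from the submitters' processing notes. Not given in the sources used here are the aligner, the counter, its annotation and whether it used strand. Reads with no feature (53.9% to 58.2% of a library) and ambiguous reads (0.288% to 0.366%) were left out. The floor of 3 counts covers counting error only.

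Counts were fitted in R 4.3.3 with edgeR 4.0.16: filterByExpr, TMM factors, robust quasi-likelihood fits and a two-sided F test of mutant against control over all 6 libraries, with Benjamini-Hochberg adjustment over 14934 genes and a threshold of 0.05. The SE was the log2 fold change divided by the square root of F, and the 95% interval used the fit's degrees of freedom. No replicates looked like the same library, since the lowest chi-square between 2 of them was 12.3 per degree of freedom. All 6 count columns share a tag beginning with lit, which the labels do not explain and which may name a litter. P-values set the difference of the groups against the spread between these libraries, and the edgeR fits share information on that spread across genes. Alternatives were DESeq2 1.42.0, limma-voom (limma 3.58.1), other scaling factors, no filter, no robust option, each library left out, a replicate block and sex. The functions were tested on simulated data.

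Members, 5 pathway lists and 11 marker lists were chosen with earlier results of these data known. The 32 members could all be named, and from each pathway list the called genes (at most 6), or the 2 with the smallest p where fewer than 2 were called, and from marker lists the most abundant and the called genes. Epcam, Prox1, Itgb2, Pecam1 and Cdh5 are given as defining markers. Of 248 listed symbols 248 matched, 2 through an older symbol. Exon lengths, positions and gene identifiers are from GENCODE M21 on GRCm38, the assembly of mm10, matched by symbol. Promoter windows are from RefSeq on GRCm38.p6. The result of 1 gene of the pathway lists is not reported here.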

Additional observations from a re-analysis of the deposited data

How the results depend on the processing

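The call of Lims1 and its direction held in all 14 alternative fits. The number of members called higher was 1 in each except DESeq2, with 2, where Itga5 joined. The number called lower was 1 and became 2 with DESeq2 and with no low-count filter, where Lims2 joined Itga2, and 0 with limma-voom, without the robust option and with sex as a covariate. It ranged from 0 to 1 without a library, and without control replicate 2 the gene called was Lims2 and not Itga2. Over all genes 488 calls became 755 with DESeq2 and 211 to 428 without a library, lowest without mutant replicate 2, with 293 without control replicate 2 and 325 without control replicate 3. Deviations from the group mean had correlations of -0.0096, 0.0194 and 0.156 between control and mutant libraries of replicates 1, 2 and 3. Control replicate 1 correlated best with mutant replicate 2 (0.119), while control replicates 2 and 3 correlated best with the mutant of their own number. With 3 libraries per group these values cannot settle whether the replicate numbers pair the libraries. With the replicate block 466 genes were called, 1 member higher and 1 lower, which was Lims2 (adjusted p = 0.0499) and not Itga2 (0.0518). With the longest transcript as length, the shares of alpha subunit RPKM in control and mutant libraries were 52.4% and 54.2% for laminin, 14.4% and 10.1% for collagen, 26.7% and 29.7% for RGD, and 6.45% and 6.02% for alpha4 and alpha9, since merged exons exceed the longest transcript by different amounts. Of 448 member values recomputed, 14 changed sign, none of them called. The log2 fold change ranged from -0.104 to 0.028 for Itgb4, -0.169 to 0.006 for Itgav, -0.054 to 0.12 for Itgb3, -0.108 to 0.335 for Itgb6, -0.02 to 0.124 for Fermt3, -0.072 to 0.011 for Tln1, -0.17 to 0.006 for Tln2 and -0.202 to 0.034 for Bcar1 without a library, and was -0.005 for Itgb3 with upper-quartile factors. The lowest counts, 8 to 140 per library, were those of Itgb8, Itga11, Itga10 and Itga7, with an SE of 0.21 to 0.41. Itgb6, with 931 to 1890 counts, had an SE of 0.23, and the part of depth in these errors was not tested.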
